A study of Mus musculus and blank sample with 191 samples.

Results

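The 10 genes described here belong to the circadian clock and its direct outputs: Per1, Per2, Per3, Cry1, Cry2, Clock, Nr1d1, Nr1d2, Dbp and Tef. They were taken by symbol from the 19962 targets of the count table, and 10 of 10 were among the 14881 targets kept by the authors' detection filter. Levels were measured with a whole-transcriptome probe panel read by digital spatial profiling (GeoMx), which counts probe barcodes released from marked regions of fixed tissue. They were followed in epithelium (lining mucosa and glands together) and stroma of the mouse uterus in 6 PV and 8 wild-type (WT) female mice. PV mice carry 1 mutant allele of the thyroid hormone receptor gene Thra (Thra1 PV/+, written PV/N in the labels), a germline change present in all cells, so that it is not confined to uterus, and WT mice (N/N) carry none. The PV mice were 2.4, 2.4, 4.0, 4.2, 5.9 and 6.3 months old (PV1 to PV6), and the WT mice 4.0, 4.5, 5.0, 5.4, 6.3, 6.3, 7.4 and 9.0 months (WT1 to WT8). The hour at which a mouse was collected is not given in the labels, so no level can be placed on a time of day. Ages stand in the labels without a unit and were read as months, as in the study's text. Only regions of the first plate were used, 95 in all, and the mouse was the replicate: counts were summed per mouse and compartment, over 31 regions of 6 PV and 29 of 8 WT mice in epithelium, and over 21 of 6 PV and 14 of 7 WT mice in stroma. Stroma of WT4 was not among them. A pathologist had chosen the regions on endometrial tissue from its morphology and its stain for cytokeratin and smooth muscle actin.

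The clock is a transcriptional loop that runs in nearly every cell of the body. CLOCK and its partner BMAL1 (gene Arntl), or NPAS2 in the place of CLOCK, bind E-box sequences and switch on the Per, Cry, Nr1d, Dbp and Tef genes. PER and CRY proteins then block that activity, while the nuclear receptors REV-ERB alpha and beta (Nr1d1, Nr1d2) repress Arntl, so that Arntl and its targets peak at opposite times of the day. DBP and TEF are proline and acidic amino acid-rich (PAR) bZIP factors that carry the rhythm to further genes through D-box sequences. Clock genes are known to cycle in the rodent uterus as well.

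On the GRCm38 build (GENCODE vM21), the negative-limb genes lie at chr11:69095217-69109960 (Per1), chr1:91415982-91459324 (Per2), chr4:151003652-151044665 (Per3), chr10:85131700-85185064 (Cry1) and chr2:92403646-92434043 (Cry2). Clock lies at chr5:76209868-76304792, Nr1d1 at chr11:98767932-98775333, Nr1d2 at chr14:18204054-18239127, Dbp at chr7:45705088-45710203 and Tef at chr15:81802421-81826863. Nr1d1 and Thra, the gene mutated in PV mice, lie on opposite strands and their annotated ends overlap by 1075 bases. Positions of the hybridisation probes were not used here, so whether either probe falls in that overlap is not known. Each target rests on its own probe, so levels are compared between samples for a gene and not between genes.

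A region of the first plate held 61690 to 3130397 counts (median 653387), and a mouse's sum 61691 to 13492532 in epithelium and 85336 to 5195249 in stroma. The lowest sums were those of PV2, which had 1 region per compartment, and the highest those of PV4. A member's per-mouse count had a median of 40 (Cry2) to 224 (Nr1d2) in epithelium and of 36 (Cry1) to 219 (Nr1d1) in stroma, but the lowest per-mouse counts were 2 to 10 and 1 to 30. Member signal was 3.12 to 15.4 times the negative-probe level in the median epithelium region and 3.70 to 21.7 times in the median stroma region. By 12 columnar and 10 fibroblast markers, 95 of 95 regions of the first plate lay on the side of their compartment label, against 57 of 94 on the second plate, which for that reason enters only the alternatives. In bulk regions like these, fewer cells of a type and less RNA per cell cannot be told apart.

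The clearest difference lay between the compartments. Of the 10 members, 9 were higher in stroma than in epithelium of the same 13 mice at an adjusted p under 0.05 (edgeR, mouse as a block), and Cry1 did not pass. Over all genes 63.0% passed that test, 34.6% as higher in stroma and 28.4% as higher in epithelium. The median log2 difference, epithelium minus stroma, was -0.56 for the members and -0.05 for all genes tested. With upper-quartile scaling the median of all genes moved to -0.18 and the share of calls higher in stroma from 54.9% to 66.5%, while the members stayed below 0.

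The output genes and the nuclear receptors differed most. Nr1d1, which encodes the repressor REV-ERB alpha, had a mean of 6.00 log2 CPM (counts scaled to the size of the library, on a log2 scale) in epithelium and 7.16 in stroma of the 13 mice, and the difference within a mouse ran from -2.20 (PV1) to -0.39 (PV4). Stroma was higher in 13 of 13 mice, and the fitted log2 difference was -1.17 ± 0.14 (SE; edgeR adjusted p 1.05e-06). Dbp, an activator of D-box genes, had means of 5.52 in epithelium and 6.68 in stroma, with differences from -2.46 (PV1) to 0.25 (PV4). It was higher in stroma in 12 of 13 mice, by a fitted difference of -1.13 ± 0.21 (edgeR adjusted p 0.00014). Tef, its relative, had means of 5.31 and 6.24 and was higher in stroma in 13 of 13 mice, from -2.04 (PV1) to -0.31 (PV2). The fitted difference was -0.99 ± 0.13 (edgeR adjusted p 1.63e-06). Nr1d2, which encodes REV-ERB beta, averaged 6.57 and 7.22 and was higher in stroma in 11 of 13 mice (-0.63 ± 0.13, edgeR adjusted p 0.000442).

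In the loop itself the differences were smaller. Clock, the positive-limb activator, averaged 5.49 in epithelium and 6.03 in stroma, higher in stroma in 12 of 13 mice (-0.56 ± 0.10, edgeR adjusted p 5.67e-05). The period genes, whose proteins inhibit CLOCK and BMAL1, differed by -0.51 ± 0.14 for Per1 (10 of 13 mice), -0.38 ± 0.12 for Per2 (11 of 13) and -0.55 ± 0.18 for Per3 (9 of 13), with edgeR adjusted p of 0.00323, 0.0104 and 0.0108. Without the mouse as a block Per2 did not pass (-0.49, adjusted p 0.181). Of the cryptochromes, which bind PER and repress with it, Cry2 averaged 4.31 and 4.63 (-0.36 ± 0.10, edgeR adjusted p 0.004; 11 of 13 mice). Cry1 had means of 4.49 and 4.47 and ran from -0.92 (PV5) to 1.49 (PV2), with a fitted difference of -0.18 ± 0.14 (edgeR adjusted p 0.279). In PV2 the Cry1 value rested on counts of 2 in epithelium and 1 in stroma. A difference for Cry1 was not detectable at this depth.

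**Figure D1:**
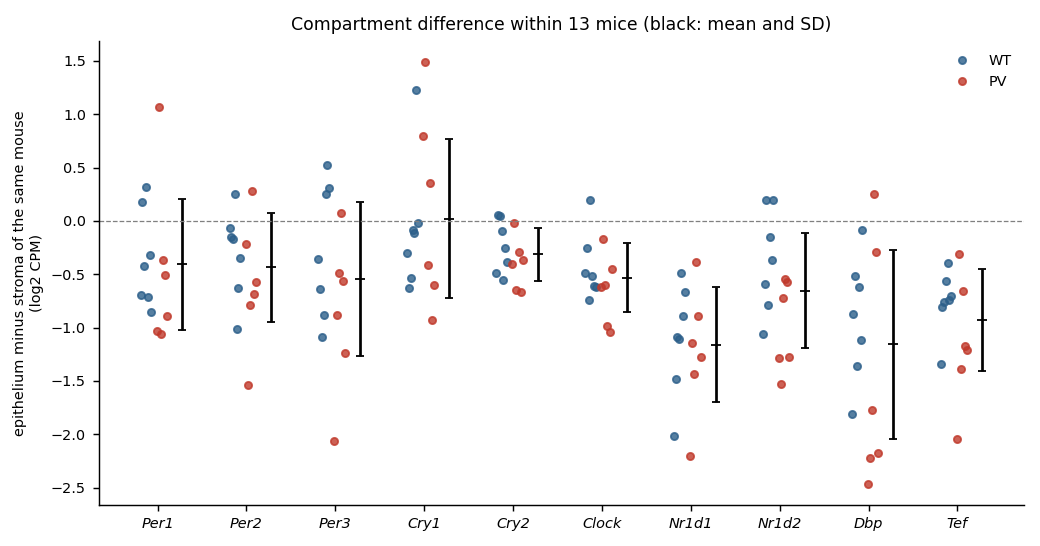
Epithelium minus stroma of the same mouse in log2 CPM for the 10 genes, with WT mice in blue, PV mice in red, and the mean and SD over 13 mice in black. Nr1d1 and Tef lie below 0 in 13 of 13 mice, while Cry1 runs from -0.92 to 1.49. The upper end for Cry1 is PV2, with counts of 2 in epithelium and 1 in stroma.

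Markers of each compartment were also counted in the other. The summed level of 10 fibroblast markers was 534 to 2313 CPM over epithelium sums and 3847 to 20980 over stroma sums, and that of 12 columnar markers 2548 to 8888 in epithelium and 214.5 to 714 in stroma. No marker of either list fell below the detection filter. Their part in the size of the compartment differences was not tested.

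Of 20 other clock genes, 7 were higher in stroma and 4 higher in epithelium at an adjusted p under 0.05, shares near those of all genes (34.6% and 28.4%), so nothing particular to the pathway is read from them. Higher in stroma were Rorb and Rora, receptors that activate through the element REV-ERB occupies (-1.75 ± 0.14 and -0.71 ± 0.13), and Hlf, the remaining PAR bZIP factor (-1.62 ± 0.26). Arntl2, a paralogue of Arntl (-0.82 ± 0.12), the deubiquitinase Usp2 (-0.93 ± 0.18), Nampt of NAD synthesis (-0.60 ± 0.12) and the repressor Ciart (-0.30 ± 0.09) were also higher there. In the median epithelium region Rorb, Hlf, Arntl2 and Usp2 stood at only 2.02 to 2.19 times the negative-probe level. Among those higher in epithelium were the E-box repressor Bhlhe40 (1.59 ± 0.19), Npas2 (0.56 ± 0.16) and the PER kinase gene Csnk1d (0.38 ± 0.09). The Npas2 and Csnk1d calls were lost with limma on per-mouse Q3 values (adjusted p 0.0782 and 0.0737). Btrc and Wee1 were at p under 0.05 before adjustment only (-0.20 ± 0.09 and -0.27 ± 0.13, edgeR adjusted p 0.0507 and 0.0685). Arntl did not pass (-0.24 ± 0.18, edgeR adjusted p 0.249), except when PV3 was left out (-0.41, adjusted p 0.0263).

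The plot of levels by mouse shows a further feature of these genes, their spread between mice of the same genotype, above all in stroma. In WT stroma Dbp ran from 5.34 (WT3) to 7.42 (WT1) with a median of 6.48, and in PV stroma from 4.61 (PV4) to 8.97 (PV1) with a median of 7.20. Per3 ran from 3.75 (WT7) to 5.85 (WT5, median 4.85) in WT stroma and from 4.15 (PV4) to 7.65 (PV1, median 6.11) in PV stroma. Tef ran from 5.28 (WT8) to 6.75 (WT1, median 5.99) and from 5.05 (PV4) to 8.14 (PV1, median 6.58). For each of them PV1, PV2 and PV6 were the highest PV mice and PV4 was the lowest, and the ranges of the genotypes overlapped.

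**Figure D2:**
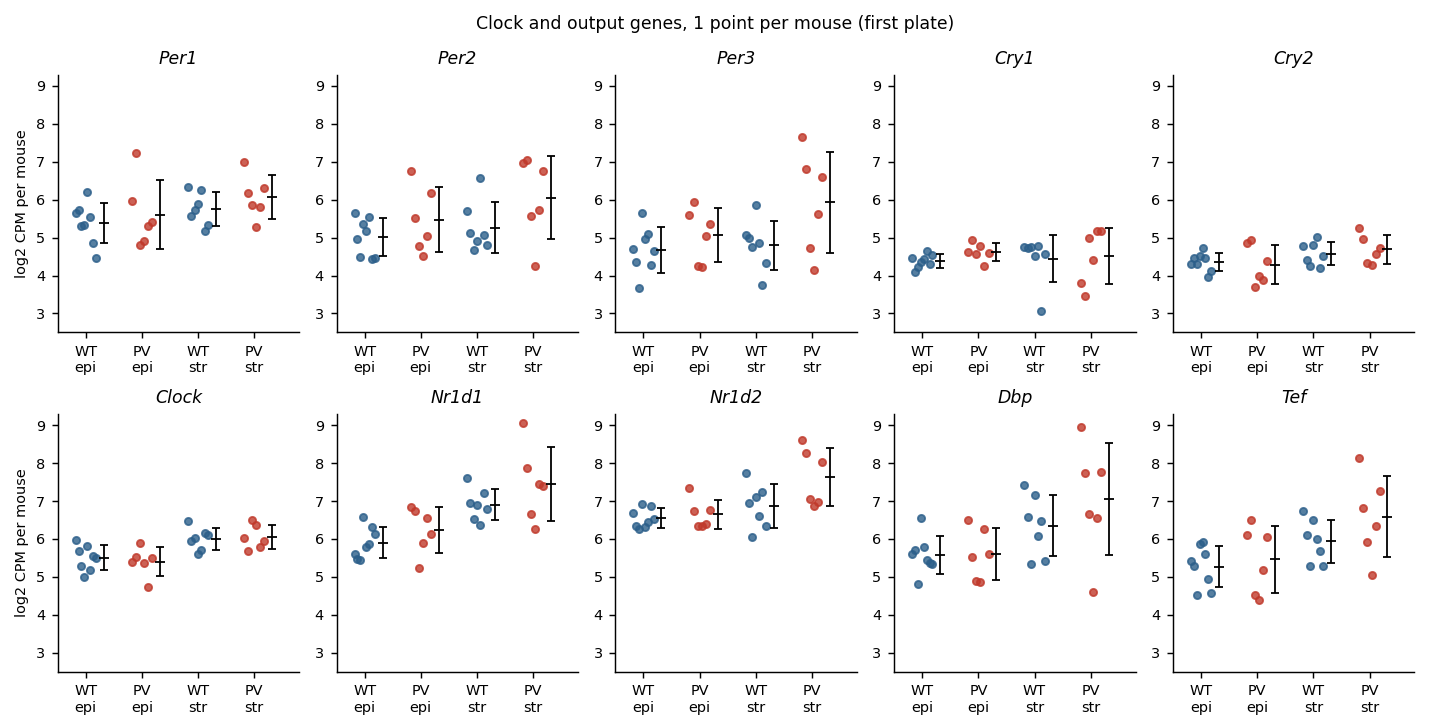
Level of each gene in log2 CPM (1 point per mouse; blue WT, red PV; epi, epithelium; str, stroma; black bar, group mean and SD), with 8 WT and 6 PV mice in epithelium and 7 and 6 in stroma. Dbp in PV stroma spans 4.61 to 8.97, and no member separates the genotypes in either compartment.

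The SD between mice around their genotype mean was 1.16 log2 units for Dbp in stroma, higher than that of 99.3% of all genes. It was 1.02 for Per3 (98.7%), 0.88 for Per2 (97.1%), 0.84 for Tef (96.1%), 0.73 for Nr1d1 (91.3%), 0.67 for Cry1 (87.0%) and 0.66 for Nr1d2 (85.9%), against 0.45 for the median gene. Clock was among the steadier genes, with 0.30 in stroma (13.9%) and 0.35 in epithelium (30.9%). In epithelium the widest members were Per1 at 0.71 (90.6%), Tef at 0.71 (90.3%) and Per2 at 0.67 (88.0%), while Cry1 at 0.20 lay above only 2.43% of genes. The 2 youngest PV mice added to this spread: in the 11 mice of 4 months or more, SDs in stroma were 1.00 for Dbp (98.9%), 0.81 for Per3 (97.1%), 0.81 for Per2 (96.9%), 0.71 for Tef (93.9%) and 0.48 for Nr1d1 (69.9%). In epithelium of the 12 such mice Per1 was no longer the widest, at 0.48 (76.4%). Tef stood at 0.62 (89.7%), Per3 at 0.59 (88.0%) and Per2 at 0.58 (86.9%).

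In stroma, regions of the same mouse stayed close together for most of these genes. In single stroma regions (log2 of the Q3-normalised value plus 1, genotype mean removed), 91.3% of the variance of Per2 lay between mice, 91.2% of Nr1d1, 91.0% of Nr1d2, 90.0% of Dbp, 88.8% of Tef and 85.1% of Per1. The median gene had 52.7%, and the first 5 of these members ranked above 99.0% or more of all genes. In epithelium the shares were 75.9% for Per1, 69.7% for Per3, 68.8% for Tef, 65.7% for Dbp and 65.1% for Per2, against 42.0% for the median gene. The other 5 showed no such concentration in epithelium, with 45.5% for Nr1d1, 42.5% for Clock, 31.9% for Cry2, 29.0% for Nr1d2 and 16.0% for Cry1. In stroma Per3 had 83.7% and Cry1 70.2%, while Cry2 (20.7%) and Clock (48.6%) lay below the median gene. These shares are a description with no test, and some mice had 1 region.

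**Figure D3:**
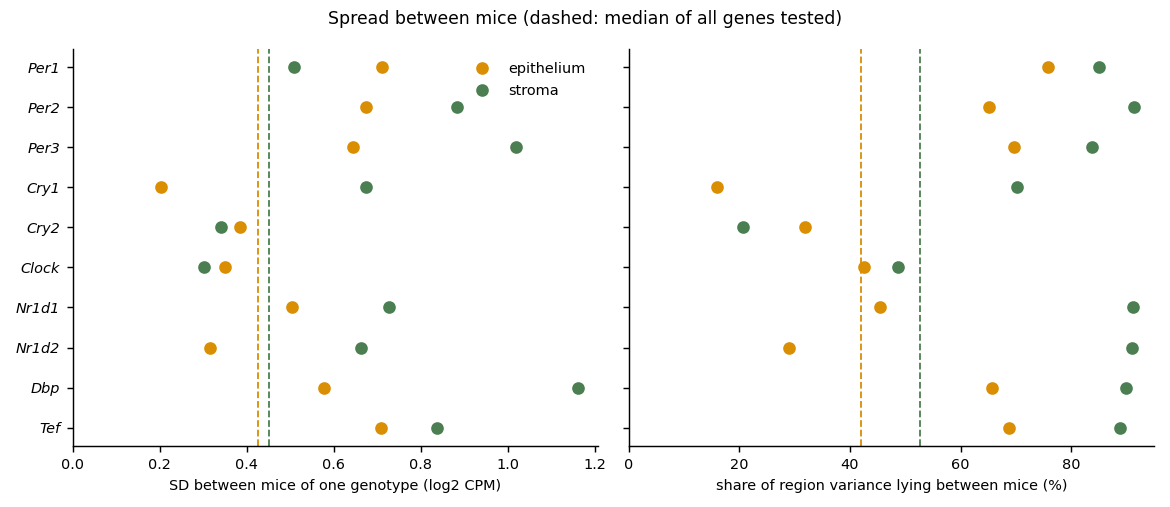
Left, SD between mice of the same genotype in log2 CPM. Right, percent of the variance over single regions that lies between mice; points are the 10 genes in epithelium (orange) and stroma (green), and dashed lines are the medians of all 14881 genes (0.43 and 0.45 log2 units; 42.0% and 52.7%). In stroma Per2, Nr1d1, Nr1d2, Dbp and Tef lie at 88.8% or more, and Cry2 lies to the left of the dashed lines.

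Most of the members moved together over mice. With the genotype mean removed, the 28 pairs among the 8 members other than Clock and Cry1 correlated at 0.59 to 0.96 over 13 mice in stroma (median Pearson r 0.80) and at 0.20 to 0.89 over 14 mice in epithelium (median 0.66). These 8 were singled out after their values were seen. In WT mice alone, 25 of the 28 pairs were above 0 in stroma (median 0.52, -0.12 to 0.95) and 23 in epithelium (median 0.54, -0.50 to 0.86). In mice of 4 months or more, 28 were above 0 in stroma (median 0.70, from 0.21) and 25 in epithelium (median 0.57, from -0.20). Over all 45 pairs of the 10 members the medians were 0.66 and 0.46, with 30 and 39 pairs above 0, against a median of -0.01 in stroma and 0.00 in epithelium for the members paired with every gene. The closest pair was Dbp and Tef in stroma, at 0.96. The search for similar genes was repeated in stroma after the values were seen. For Dbp the 5 most similar genes of all 14881 included Tef (0.96), Nr1d2 (0.90), Nr1d1 (0.85) and Psip1 (0.85). For Tef they included Dbp (0.96), Slitrk3 (0.90), Per3 (0.89) and Hlf (0.89), and the gene closest to Per3 was Hlf (0.96), with Tef (0.89) among the 5 closest.

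In epithelium the genes most similar to Per3 were Tef (0.89), Prkcz (0.89), Clcn2 (0.88), Tmem178b (0.86) and Nudt16 (0.86), and those most similar to Tef were H2al3 (0.90), Per3 (0.89), Iftap (0.87), Cry2 (0.86) and Clcn2 (0.85). The other 8 members had no member or clock gene among their 5 closest there. In stroma Per1 was among the 5 closest to Cry2 (0.87) and Dbp among the 5 closest to Nr1d2 (0.90). Over all mice Clock and Cry1 stood apart: in stroma Clock correlated with the other 9 members at -0.58 to 0.07 and Cry1 at -0.47 to 0.07. In the mice of 4 months or more the values for Cry1 were -0.29 to 0.67, so its place rests on PV1 and PV2. Those for Clock were -0.60 to 0.12 in the same mice. In the 7 WT mice alone Clock ran from -0.47 to 0.73 in stroma, with 4 of 9 values above 0, so its separate place was not seen there.

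Arntl, which encodes BMAL1, ran the other way. In stroma it stood at 3.81 in PV1, 3.46 in PV2, 4.87 in PV3, 5.74 in PV4, 5.34 in PV5 and 3.89 in PV6, and in WT mice at 4.54 (WT5) to 5.68 (WT3, median 5.37). The PV mice with the highest Dbp and Per3 thus had the lowest Arntl, and PV4, with the lowest, had the highest. Its correlation over 13 mice was -0.88 with Dbp (Spearman rho -0.89), -0.84 with Per3 (-0.86), -0.84 with Nr1d2 (-0.87) and -0.82 with Tef (-0.81). Only 0.0941% of all genes correlated as low as Arntl with Dbp, and 0.114% with Nr1d2, 0.202% with Per3 and 0.356% with Tef. Without PV1 and PV2, the mice farthest from the Arntl median, r was -0.89 with Dbp, -0.78 with Per3, -0.77 with Nr1d2 and -0.87 with Tef. In the 7 WT mice alone Arntl was below 0 with 9 of the 9 members other than Clock, from -0.88 to -0.01.

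Npas2, the alternative partner of BMAL1, followed Arntl in stroma at 0.92 and was correlated with Dbp at -0.83 (rho -0.79; 0.296% of genes as low) and with Nr1d2 at -0.76. In epithelium of all 14 mice Npas2 showed nothing of the kind, at -0.34 to 0.23 with the members and 0.00 with Arntl. In mice of 4 months or more Npas2 was above 0 there with 2 of the 9 members other than Clock (median -0.24, -0.63 to 0.22). Arntl itself stayed below 0 with 9 of 9 members other than Clock in epithelium, most with Nr1d1 (-0.77; 1.23% of genes as low) and Per3 (-0.62; 3.55%). Without PV2 and PV3 those values were -0.55 and -0.47, but r was -0.01 for Per1, 0.22 for Cry2 and 0.37 for Cry1. In the 8 WT mice alone 7 of 9 were below 0 in epithelium (-0.87 to 0.32). Over single epithelium regions only 6.41% of the variance of Arntl lay between mice (42.0% for the median gene). In stroma that share was 80.9% (52.7% for the median gene). All of these are descriptions over mice that share a scaling per sum, with no test. Per-mouse depth moved with the members: in stroma the log10 of the summed counts correlated at -0.58 to -0.29 with the 8 members other than Clock and Cry1, at 0.51 with Clock and at 0.59 with Cry1, and in epithelium at -0.82 (Per1) to 0.13 (Clock). Marker scores moved with some members in epithelium as well: the columnar score correlated at -0.85 with Per1, and the fibroblast score at -0.78 with Per3, -0.67 with Nr1d1 and -0.59 with Tef. The part of depth and of these markers in the relations was not tested.

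**Figure D4:**
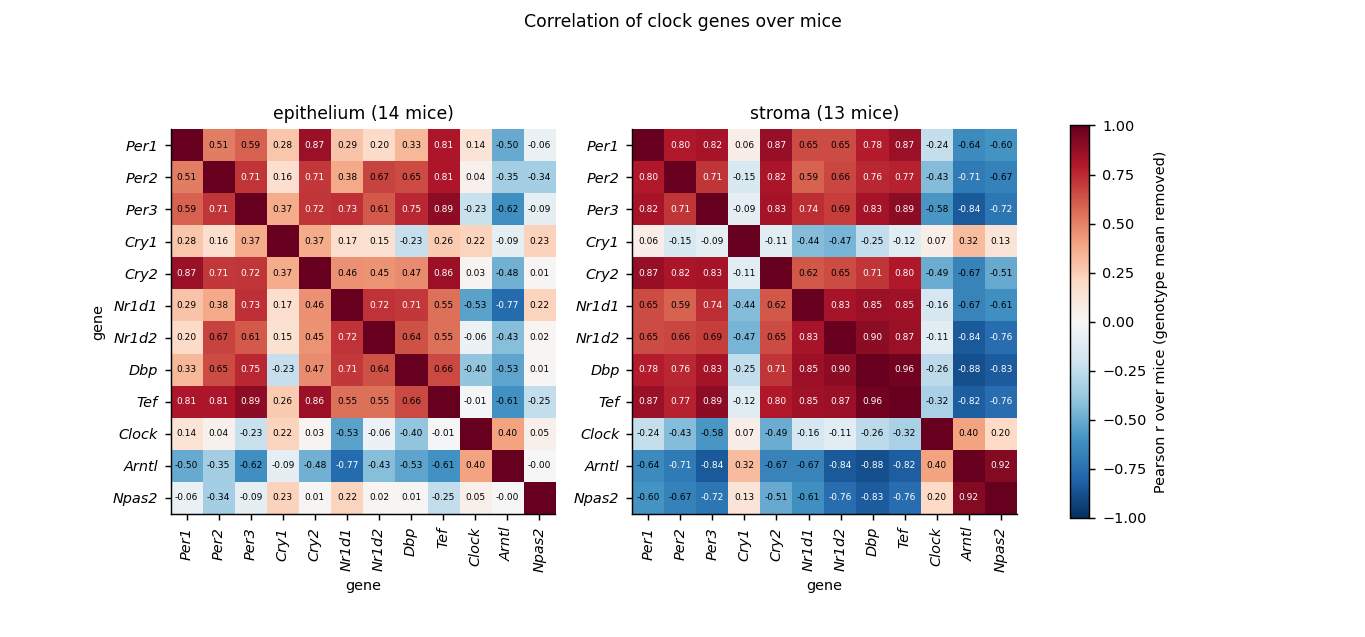
Pearson r over mice between the clock genes, with the genotype mean removed (left, epithelium, 14 mice; right, stroma, 13 mice; red above 0, blue below 0). In stroma Arntl and Npas2 are blue against Per2, Per3, Nr1d1, Nr1d2, Dbp and Tef, as with -0.88 between Arntl and Dbp, and red with each other at 0.92.

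Promoter sequence is shown here for members that varied together over mice and for Cry1, which in stroma of all 13 mice did not follow them. Of the 10 members 9 had an entry in the RefSeq promoter set (GRCm38.p6), and the 250 bases before each start site were searched on both strands for the E-box CACGTG, its variant CACGTT, the D-box as TTATGTAA or TTACGTAA, the ROR element TAGGTCA and the cAMP element TGACGTCA. Capitals mark the matches, which do not overlap each other, and each sequence is given 5′ to 3′ on the strand of the gene.
Per3, chr4:151044666-151044915, minus strand: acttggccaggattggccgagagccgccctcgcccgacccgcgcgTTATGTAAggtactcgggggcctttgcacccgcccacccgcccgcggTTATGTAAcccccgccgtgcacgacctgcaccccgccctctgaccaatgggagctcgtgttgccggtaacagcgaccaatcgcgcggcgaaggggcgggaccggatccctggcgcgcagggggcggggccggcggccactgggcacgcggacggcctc
Nr1d1, chr11:98775378-98775627, minus strand: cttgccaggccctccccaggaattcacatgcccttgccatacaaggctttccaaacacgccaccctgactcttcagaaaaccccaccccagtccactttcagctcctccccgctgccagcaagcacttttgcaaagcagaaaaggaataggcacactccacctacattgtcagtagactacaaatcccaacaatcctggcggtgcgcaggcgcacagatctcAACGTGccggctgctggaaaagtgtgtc
Cry1, chr10:85185055-85185304, minus strand: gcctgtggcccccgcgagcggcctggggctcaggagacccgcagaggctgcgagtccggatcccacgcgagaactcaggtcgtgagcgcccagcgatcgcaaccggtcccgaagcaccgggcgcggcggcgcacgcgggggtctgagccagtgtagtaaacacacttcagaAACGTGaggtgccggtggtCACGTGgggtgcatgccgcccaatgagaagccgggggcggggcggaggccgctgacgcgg
The Per3 stretch held the D-box letters TTATGTAA 2 times, from -205 and from -158 relative to the start site. Such letters occurred in 0.931% of the 32851 windows of all genes. Nr1d1 held the CACGTT variant on the opposite strand at -28. Cry1 held an E-box at -60 and the variant on the opposite strand at -79.
For Tef and Per1, whose RefSeq start sites lie inside the GENCODE gene, and for Cry2, 30 bases around the match are shown.
Tef, chr15:81802534-81802563, plus strand: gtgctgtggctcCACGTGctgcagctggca
Tef, chr15:81811264-81811293, plus strand: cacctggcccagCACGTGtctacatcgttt
Per1, chr11:69098771-69098800, plus strand: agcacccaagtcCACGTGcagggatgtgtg
Cry2, chr2:92434218-92434247, minus strand: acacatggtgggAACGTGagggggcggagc
Tef held an E-box before both of its starts and Per1 before 1 of its 2. The 9 members had 13 windows, since some have several starts. The E-box was found in 4 of these 13 (3 members) and in 6.02% of all windows, and the CACGTT variant in 3 of 13 (3 members) and in 3.85%. No ROR or cAMP element was found in these stretches of the members (2.23% and 1.55% of all windows). Dbp, Clock and Nr1d2 held none of the searched letters here. A match of letters is a description and shows no binding.

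Levels in the compartments of the same mouse were then set against each other, to ask whether a mouse that stood high in stroma also stood high in epithelium. Deviations from the genotype mean correlated over 13 mice at 0.84 for Tef (Spearman rho 0.86; permutation p 0.00186, two-sided, stroma values permuted within genotype), 0.82 for Per2 (rho 0.78; permutation p 0.00232), 0.80 for Nr1d2 (rho 0.87; permutation p 0.00209) and 0.79 for Cry2 (rho 0.79; permutation p 0.00306). The permutation p of rho was 0.00165, 0.00602, 0.00174 and 0.00524 in the same order. Adjusted over the same test of all 14881 genes, these 4 permutation p-values were 0.0386, 0.0433, 0.0412 and 0.0486, and 6.49% of all genes passed. With both plates summed r for Nr1d2 was 0.49 (permutation p 0.0942).

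Per3 (r 0.77, permutation p 0.00889, adjusted 0.0801; rho 0.76, permutation p 0.00812) and Dbp (r 0.71, permutation p 0.0242, adjusted 0.133; rho 0.68, permutation p 0.023) passed 0.05 before adjustment only. That made 6 of 10 members at an unadjusted permutation p under 0.05, where 25.7% of all genes had one. The call for Dbp was lost without PV1 (r 0.57), PV4 (0.59) or WT3 (0.67). Nr1d1 (0.64, permutation p 0.0568; rho 0.62, permutation p 0.0444), Per1 (0.54, permutation p 0.0928; rho 0.70, permutation p 0.0147) and Clock (0.48, permutation p 0.118; rho 0.21, permutation p 0.514) did not pass. Cry1 gave -0.34 (permutation p 0.289; rho -0.31, permutation p 0.334).

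The median r was 0.74 for the members and 0.36 for all genes (quartiles 0.06 and 0.60), so that r lay above 0 for most genes. Without the 2 mice farthest from the median in epithelium, r was 0.89 for Tef, 0.88 for Per3, 0.81 for Per2, 0.80 for Dbp, 0.79 for Nr1d2 and 0.78 for Cry2. It was 0.39 for Nr1d1 and 0.16 for Clock, values that rested on those mice, 0.71 for Per1 and -0.03 for Cry1. In PV mice alone Per3 gave 0.92 and in WT mice 0.40, and Tef 0.83 and 0.86. In the same order r was 0.92 and 0.59 for Nr1d2, 0.91 and 0.62 for Cry2, and 0.83 and 0.79 for Per2. It was 0.81 and 0.07 for Nr1d1, 0.57 and 0.38 for Clock, and -0.76 and 0.16 for Cry1. Dbp (0.68 and 0.80) and Per1 (0.48 and 0.64) were higher in WT mice.

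**Figure D5:**
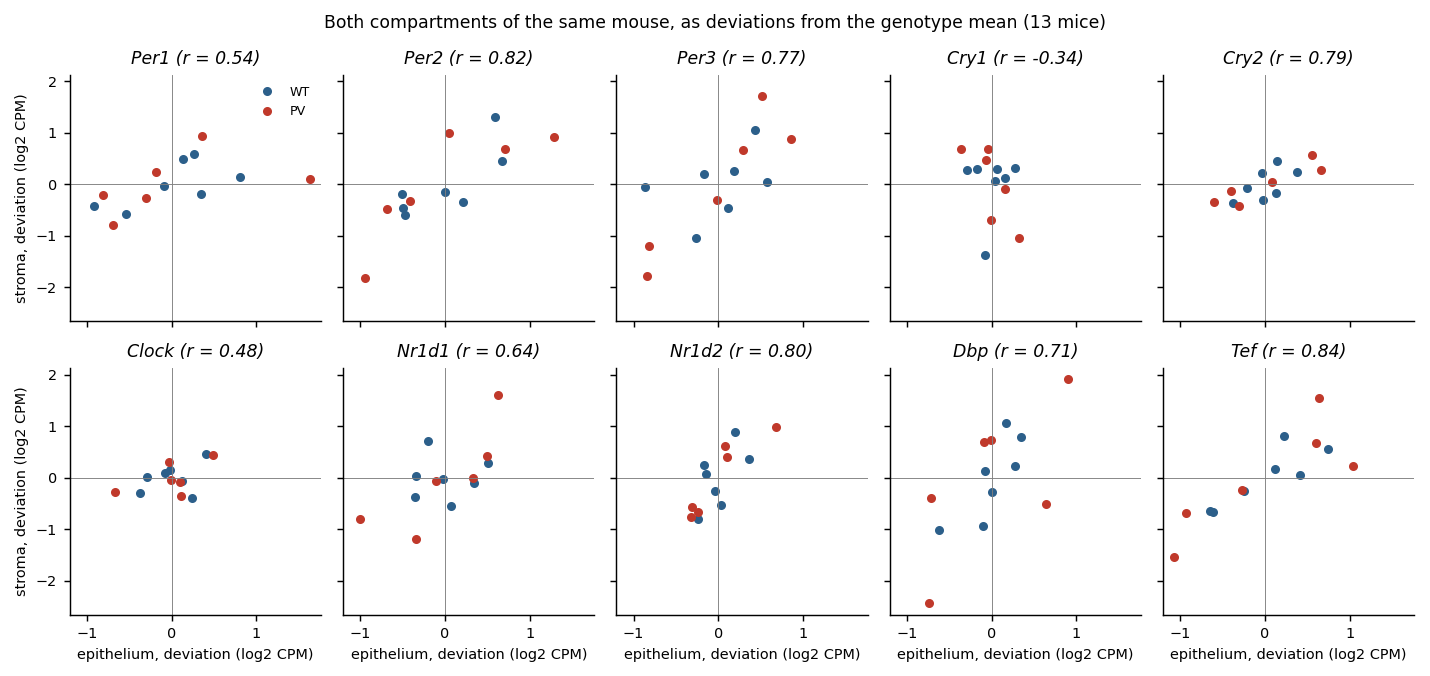
Stroma against epithelium of the same mouse, each as a deviation from its genotype mean in log2 CPM (13 mice; blue WT, red PV; 1 panel per gene with Pearson r). Tef, Per2, Nr1d2 and Cry2 lie along a rising diagonal (r 0.79 to 0.84), whereas Cry1 does not (r -0.34).

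Genotype was compared over mice in each compartment. In epithelium 0 of the 10 members passed at an adjusted p under 0.05, as did 0% of all genes (edgeR, 6 PV and 8 WT mice). At an unadjusted p under 0.05 the members numbered 0, with 8.22% of all genes. DESeq2 called 0 members in epithelium and 0 in stroma. The largest fitted difference was that of Per2, at 4.52 (PV4) to 6.76 (PV1, median 5.29) in PV and 4.45 (WT7) to 5.64 (WT1, median 5.07) in WT mice, which overlapped. Its log2 difference, PV minus WT, was 0.57 ± 0.34 (edgeR adjusted p 0.676; exact permutation p 0.237), and 0.19 without PV1. Nr1d1 gave 0.29 ± 0.25 (edgeR adjusted p 0.803) and 0.12 without PV1, and 5 of 6 PV mice stood over the median of the WT mice.

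Cry1 had the narrowest groups, at 4.26 to 4.95 (median 4.60) in PV and 4.09 to 4.66 (median 4.39) in WT epithelium, and differed by 0.21 ± 0.14 (edgeR adjusted p 0.717), with an exact two-sided permutation p of 0.049 before any adjustment for the 20 such tests. Cry2 gave -0.21 ± 0.20 (edgeR adjusted p 0.814). Means in PV and WT epithelium were 5.61 and 5.38 for Per1, 5.07 and 4.67 for Per3, 5.41 and 5.50 for Clock, 6.65 and 6.55 for Nr1d2, 5.61 and 5.58 for Dbp and 5.46 and 5.27 for Tef, each with overlapping mice.

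In stroma too 0 of 10 members and 0% of all genes passed at an adjusted p under 0.05 (edgeR, 6 PV and 7 WT mice). Before adjustment 4 members had p under 0.05, all higher in PV, where 2.12% of all genes were higher in PV at that p and 3.52% in either direction. These were Per3, with a log2 difference of 1.24 ± 0.47 (edgeR unadjusted p 0.0152), Nr1d2 (0.82 ± 0.32, edgeR unadjusted p 0.0209), Nr1d1 (0.77 ± 0.36, edgeR unadjusted p 0.0452) and Tef (0.83 ± 0.39, edgeR unadjusted p 0.0474). Their adjusted p was 1.0. Dbp gave 1.01 ± 0.50 (unadjusted p 0.0551) and Per2 0.73 ± 0.40 (0.0862), also with adjusted p of 1.0. The median over the 10 members was 0.75 and over all genes 0.01.

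Nr1d2 ran from 6.06 (WT3) to 7.75 (WT1, median 6.94) in WT and from 6.87 (PV4) to 8.62 (PV1, median 7.55) in PV stroma, so that the groups overlapped although the median of WT mice was passed by 5 of 6 PV mice. Nr1d1 ran from 6.36 (WT6) to 7.62 (WT1, median 6.88) and from 6.27 (PV4) to 9.06 (PV1, median 7.43). Exact permutation of genotype gave p of 0.0618 for Nr1d2, 0.0734 for Per3, 0.134 for Per2, 0.193 for Tef, 0.21 for Nr1d1 and 0.308 for Dbp (two-sided), and the smallest that 6 against 7 mice allow is 0.000583. In neither compartment did a member separate the genotypes, as 0.134% of genes did in epithelium and 0.0538% in stroma.

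The unadjusted calls in stroma did not hold without PV1, nor under several other settings that kept PV1. PV1 and PV2, both 2.4 months old and younger than any WT mouse, were the highest of all mice for Per2, Per3, Nr1d1 and Nr1d2. Without PV1 the number of members with an unadjusted p under 0.05 was 0, and the log2 differences were 0.62 for Per3, 0.55 for Nr1d2, 0.22 for Nr1d1 and 0.33 for Tef. That number was 2 without PV2, PV6, WT2, WT3 or WT8, and 5 or 6 without PV3, PV4, PV5 or WT1. With age as a covariate the number was 0 (Per3 0.87, Nr1d2 0.50), and in mice of 4 months or more, a setting chosen after the data were seen, it was 0 as well (Per3 0.48, Nr1d2 0.37). Age and genotype could not be told apart below 4 months. PV1 also had the highest summed smooth muscle markers (1425 CPM over 5 genes; 400 to 1425 in PV and 251.0 to 1124 in WT stroma) and the highest endothelial markers (518 CPM over 4 genes; 219 to 518 in PV and 178 to 291 in WT). B and plasma cell markers (5 genes kept) stood at 177 to 2104 CPM in PV stroma (median 1186), highest in PV4, against 81.8 to 689 (median 189) in WT stroma. The part of these markers in the stroma difference was not tested.

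The genotype effect was not shown to differ between compartments or ages. For genotype by compartment 0 members and 0% of genes passed after adjustment, and 1 member passed before it (7.16% of genes), Nr1d2 at -0.56 ± 0.24 (edgeR unadjusted p 0.0338, adjusted 0.668). For genotype by age class, split at 5 months, 0 members passed before or after adjustment in either compartment, with 3.61% of genes in epithelium and 5.52% in stroma before it and 0% after. The only PV mice from 5 months were PV5 and PV6, and the only WT mice under 5 months were WT1 and WT2. So few mice limit what the age comparison can show.

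Among the other 20 clock genes 0 passed for genotype after adjustment. Bhlhe40, an E-box repressor, had the lowest p in stroma, at 4.66 (WT3) to 6.44 (WT7, median 5.69) in WT and 5.37 (PV2) to 7.30 (PV4, median 6.43) in PV mice (0.98 ± 0.27, edgeR unadjusted p 0.0018, adjusted 0.953). Hlf was at 4.42 and 6.30 (medians, WT and PV) in stroma (1.24 ± 0.50, edgeR unadjusted p 0.0231), and its difference was 0.62 without PV1 and 0.46 in mice of 4 months or more. In epithelium it lay the other way, at -0.50 ± 0.23 (edgeR unadjusted p 0.0421). Hlf signal there was low, at 2.02 times the negative-probe level in the median region and with a lowest per-mouse count of 1. Csnk1e, a kinase gene whose product marks PER for turnover, gave 0.40 ± 0.16 in epithelium (edgeR unadjusted p 0.025). Arntl gave 0.28 ± 0.25 in epithelium and -0.22 ± 0.29 in stroma, and Npas2 -0.10 ± 0.35 and -0.01 ± 0.30 (edgeR adjusted p 0.802 to 1.0). Per-mouse levels of Arntl in epithelium lay the other way from the fit, with means of 4.69 in PV and 4.76 in WT mice. The medians were 4.53 and 4.80, and PV3 stood highest at 6.02. For genotype by compartment, clock genes with an unadjusted p under 0.05 included Hlf (-1.26 ± 0.46), Rora (-0.61 ± 0.23) and Wee1 (0.50 ± 0.23; edgeR adjusted p 0.601 to 0.693). For genotype by age class they were Arntl (-1.14 ± 0.48) and Npas2 (-1.72 ± 0.73) in epithelium and Csnk1e (-1.41 ± 0.40) and Npas2 (-1.26 ± 0.58) in stroma, written as the effect from 5 months minus that under 5 months (edgeR adjusted p 0.886 to 1.0).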

How the data were processed

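Uterine epithelium and stroma of PV and WT mice were profiled by digital spatial profiling with the mouse whole-transcriptome panel on fixed, paraffin-embedded tissue. The labels of the 189 deposited regions name 14 mice, 1 more than the protocol text gives. Probe barcodes were counted with the vendor's pipeline, and in the expected counts, as deposited by the authors, the probes of a target were combined to 1 value per target and region, with a lowest value of 1. The Q3-normalised signal values deposited by the authors had been scaled by the upper quartile of each region and kept targets detected in at least 10% of regions, which left 14881. The submitters' processing notes name R 4.1.2, Space Ranger and the build mm10. The negative-probe row (0.000527% of the table) was left out of library sizes and tests.

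Counts were rounded and summed over the first-plate regions of a mouse and compartment, so that the mouse is the replicate. Epithelium sums were 61691 to 13492532 counts, stroma sums 85336 to 5195249, and barcode counts limit precision most in PV2. Genotype, compartment (mouse as a block), genotype by compartment and genotype by age class (split at 5 months) were tested with edgeR 4.0.16 (R 4.3.3, TMM scaling, glmQLFit and glmQLFTest, Benjamini-Hochberg adjustment over all targets kept, threshold 0.05). Levels were expressed as log2 CPM, to which edgeR adds a prior of 2 counts. Single genes were tested by exact permutation of genotype, and epithelium against stroma over mice by 100000 permutations within genotype. A pseudocount of 1 was used for Q3-normalised values. The scripts were tested on simulated data.

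Pairing was by mouse, which the titles give for both compartments. Alternatives were DESeq2 1.42.0, upper-quartile scaling, other gene filters, subtraction of the negative-probe level, limma 3.58.1 on Q3-normalised values, the other plate, both plates, mice with at least 2 regions, each mouse left out, age or the other compartment's marker score as covariates, and no block. Mice of 4 months or more were added after the data were seen. The members, the 20 further clock genes and the marker lists were chosen with earlier results of these data known. All members were named; a further clock gene was named where it passed a test or had an unadjusted p under 0.05, Arntl and Npas2 always, and the 5 most similar genes in epithelium where these held a clock gene. Of 9 marker lists, results are given for columnar, fibroblast, smooth muscle, endothelial and B and plasma cells. A few genes that the naming rule selects are not reported here.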

Additional observations from a re-analysis of the deposited data

Results flagged for a closer look

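Cry1 in the stroma of WT7 stood at 3.07 log2 CPM, apart from the other 6 WT mice, whose values reached up to 4.77. Its distance to the nearest WT mouse was 0.844 of the range of the 7 mice. The stroma of WT7 rests on 1 region with 373231 counts. Chance gives about 1 such mouse in 20 groups, and 40 groups of mice were checked for the 10 genes, of which 1 held an outlying mouse.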

How the results depend on the processing

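Under the first-plate alternatives the number of members called between compartments was 9, and 8 without the mouse as a block. Leaving out each mouse gave 9 to 9, and 0 to 0 for genotype and its interactions. The members that passed an unadjusted 0.05 in the correlation of epithelium with stroma numbered 5 to 7 when a mouse was left out. Both plates summed gave 6 calls between compartments, and the second plate alone gave 0. For genotype in stroma, 4 members had an unadjusted p under 0.05, against 0 with both plates, 0 in mice with at least 2 regions, 1 on the second plate, 2 after subtraction of the negative-probe level and 2 with limma on Q3-normalised values, and 0 to 6 when a mouse was left out.

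Of the fold changes that were compared over the alternatives, those that turned did so with the second plate included. Not compared in this way were Arntl and Npas2 for genotype, and Btrc and Wee1 between compartments. The same holds for Hlf, Rora and Wee1 for genotype by compartment, and for all values for genotype by age class. The epithelium genotype differences given only as levels were near 0 and turned more readily: without PV1, PV minus WT was -0.19 for Dbp, -0.071 for Nr1d2 and -0.092 for Tef, against 0.041, 0.11 and 0.088 with PV1, and Per1 was -0.0069 with edgeR and 0.13 with DESeq2. With both plates summed Hlf gave 0.32 for PV against WT in epithelium and Cry1 0.00168 for epithelium against stroma. On the second plate alone, PV minus WT was 0.47 for Hlf in epithelium, and in stroma -0.055 for Per2, -0.40 for Per3, -0.30 for Nr1d1, -0.23 for Nr1d2, -0.64 for Dbp, -0.62 for Tef and -1.08 for Hlf. Epithelium minus stroma was then 0.085 for Per1, 0.34 for Per2, 0.049 for Per3, 0.15 for Cry1, 0.044 for Cry2, 0.23 for Nr1d1, 0.055 for Nr1d2, 0.22 for Dbp, 0.26 for Tef, 0.12 for Hlf, 0.082 for Rora, 0.053 for Ciart, -0.057 for Bhlhe40, -0.14 for Csnk1d and 0.0093 for Arntl, and the genotype by compartment value of Nr1d2 was 0.42. The cause was not tested; by the columnar and fibroblast markers, 57 of 94 regions there matched their label. In all, 1183 of the alternative values were classed as the same, 34 as weaker, 8 as stronger and 26 as turned. A fold change or correlation was classed as the same if it kept direction and side of the threshold. The tally also holds numbers of members called, which were classed by their size. Between compartments, all genes called numbered 9380, 5631 with both plates and 0 on the second plate alone. For genotype edgeR called 0 genes in each compartment and DESeq2 28 in epithelium and 2 in stroma. With age as a covariate edgeR called 10 in epithelium. None of these was a member. Counts of 1 to 30 in the sums of PV2 limit what its values can show.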
